A study of Mus musculus with 12 samples.

Results

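The striatum of mice carrying the label STING-KO was compared between 14 and 7 days after ischemic stroke, with 2 RNA-seq libraries at each time, 4 of the 12 libraries of the series. All genes were considered, and the members of the comparison were chosen by the library titles alone. The other 8 libraries are labelled WT or cGAS-KO, with 2 libraries per genotype and time, and their values are given for comparison. All 12 libraries were fitted together, so the other 8 also enter the low-count filter, the normalisation and the spread behind each p-value. All mice were C57BL/6J, all had an ischemic stroke, and both deficient lines were made with CRISPR-Cas9; no uninjured group was analysed here. The labels give neither the age nor the sex of the mice, do not name the edited exon, and do not say whether the 2 libraries of a group came from separate mice. The p-values therefore measure the spread between libraries of the same group over the series, and that spread may be technical.

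The striatum consists mainly of GABAergic spiny projection neurons, which form a direct pathway marked by the dopamine receptor Drd1 and the peptides Tac1 and Pdyn, and an indirect pathway marked by Drd2, Adora2a and Penk. After a stroke, microglia and invading macrophages clear dying cells and take on a phagocytic, lipid-laden state, astrocytes become reactive, and fibroblasts lay down a scar matrix at the lesion core. STING is a membrane adaptor of the endoplasmic reticulum that is activated by cGAMP, the product of the DNA sensor cGAS, and drives type I interferon and inflammatory genes through TBK1 and IRF3.

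In the libraries labelled STING-KO the striatum at 14 days differed from that at 7 days in most of its expressed transcriptome. Of 19822 genes tested, 11274 (56.9%) changed at an adjusted p below 0.05, 5426 upward (27.4%) and 5848 downward (29.5%) (quasi-likelihood test of edgeR, p-values adjusted by Benjamini-Hochberg, as for every adjusted p below). With a log2 change of at least 1 in size required as well, 7814 genes (39.4%) remained. The values of the 2 times did not overlap for 15426 genes (77.8%; 37.5% higher and 40.3% lower at 14 days), and the median log2 change over all genes tested was -0.04. In libraries labelled WT the same comparison of times called 8693 genes (43.9%) and in the libraries labelled cGAS-KO it called 6022 (30.4%). Expression is given for each library as CPM, its counts scaled to the normalised library total, replicate 1 before replicate 2, and differences as log2 changes of 14 against 7 days ± SE. CPM are not scaled for gene length, so levels are compared between libraries and not between genes.

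Library totals of the 4 libraries ran from 15956242 to 19365592 counts, and 3 counts equal 0.159 to 0.195 CPM there. The first principal component held 57.4% of the variance over the 12 libraries, and the 4 libraries had scores of 77.5 and 77.7 at 7 days and -92.9 and -73.4 at 14 days. Over the series this component did not follow time: the 7-day libraries labelled WT had scores of -72.5 and -81.6, beside the 14-day STING-KO pair, and the other 4 14-day libraries lay between -6.82 and 12.4. On the second component the 7-day libraries labelled WT stood at 70.8 and 76.1 and the 14-day STING-KO pair at -46.0 and -36.3. The 14-day STING-KO pair also stood apart from the other 14-day libraries in its striatal neuron genes, whose 21 pan-striatal members summed to 15245 and 17020.5 CPM against 2607 to 6328 CPM there. The 14-day pair differed more from each other than the 7-day pair did, with a chi-square per degree of freedom of 48.5 against 20.6 over genes. At 14 days replicate 2 held more of the complement genes (313 and 891 CPM summed) and of the phagocyte genes (165 and 289.8 CPM) than replicate 1, but not of the monocyte and macrophage genes (23.2 and 21.7 CPM). Mitochondrially encoded transcripts took 3.40% and 3.13% of counts at 7 days and 4.01% and 6.16% at 14 days, and cytosolic ribosomal protein genes took 2.76% and 2.84% against 1.54% and 1.17%. Markers of neighbouring tissue also moved with time, but not all in the same direction. The 15 choroid plexus genes summed to 4714 and 2919 CPM at 7 days and 744 and 278 CPM at 14 days, the 8 thalamic genes to 299 and 292 CPM and then 40.2 and 45.8 CPM, and the 11 cortical genes to 406 and 238 CPM and then 167 and 193 CPM. The sum of the 6 hippocampal and dentate granule cell genes was instead higher at 14 days, at 134 and 280 CPM and then 379 and 359 CPM. Of these 6 genes 2 were called higher and 3 lower, where 27.4% and 29.5% of all genes tested were. Whether dissection, RNA composition or lesion size has a part in the changes below was not tested. The 7-day libraries labelled WT stood apart from the other 7-day libraries on both components and had low immune transcripts, so each comparison with WT rests on a group unlike the 7-day knockout groups.

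The targeted transcript did not follow the labels. Tmem173, the gene of STING (ENSMUSG00000024349; mm10, chromosome 18, 35733679 to 35740554, minus strand), stood at 20.9 and 23.8 CPM at 7 days in the libraries labelled STING-KO and at 2.40 and 5.21 CPM at 14 days. The 7-day values lay close to the 22.3 and 20.8 CPM of the 14-day libraries labelled WT, while the 7-day libraries labelled WT held 2.80 and 2.71 CPM. The fall between the times was -2.56 ± 0.27 (adjusted p = 1.07e-05), and -3.23 without replicate 2 at 14 days. An edited gene can still be transcribed, and counts per gene do not show which exons the reads cover, so this check does not test the edit itself. Low Tmem173 was found in the 14-day libraries labelled STING-KO and in the 7-day libraries labelled WT. These groups also had the lowest sums of homeostatic microglia genes, 622 and 1191 CPM and 365 and 351 CPM. The part of microglial RNA in the level of Tmem173 was not tested, so that level alone does not settle the labels. Whether labels were exchanged between libraries cannot be told from these files, and an exchange would change what every difference between 14 and 7 days given here means. All genotype names, WT included, are therefore used as labels. Cgas, the DNA sensor upstream of STING, fell as well, from 11.2 and 12.6 CPM to 4.499 and 3.58 CPM (-1.55 ± 0.30, adjusted p = 0.000886).

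To describe the change by cell type and pathway, 49 gene lists with 884 distinct members found in the annotation were used, of which 865 passed the filter on low counts. Of these 865 members, 650 were called, 168 higher and 482 lower at 14 days, where 56.9% of all genes tested were called. Of the calls among members 25.8% were higher, against 48.1% of the calls over all genes. The lists were chosen with earlier results of these data known, so this lean toward falls describes the lists and not the transcriptome. In 36 lists more members were called lower than higher, and in 12 the reverse. The plot of called shares sets each list beside the share over all genes: striatal neuron lists stand at the top and myeloid, matrix and complement lists at the bottom.

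**Figure D1:**
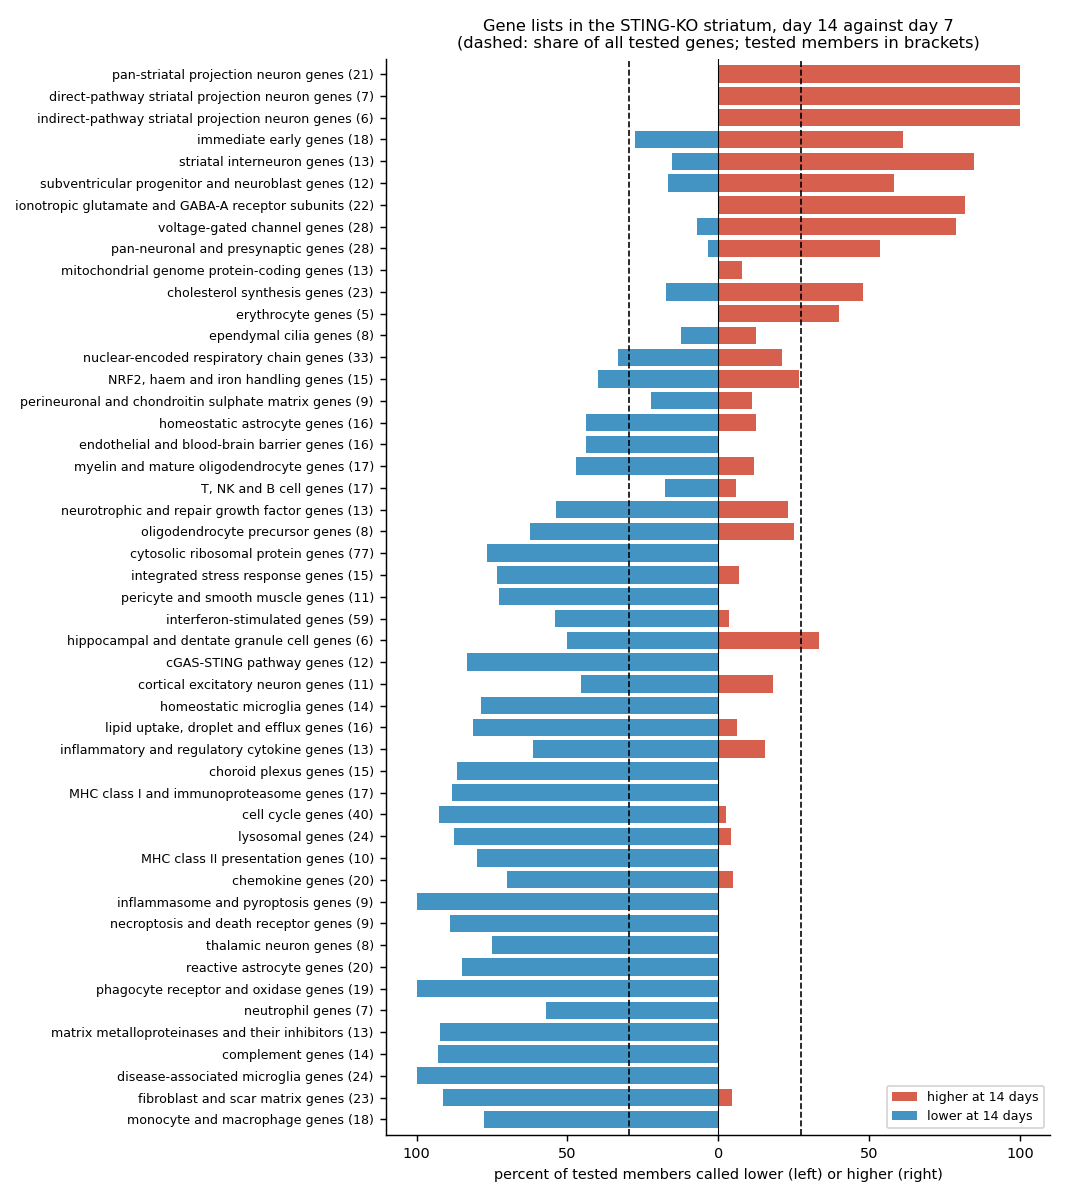
Share of the tested members of each gene list called lower (bars to the left) or higher (bars to the right) at 14 than at 7 days in the libraries labelled STING-KO, in percent, with lists ordered by median log2 change. The dashed lines mark the shares over all tested genes, 29.5% lower and 27.4% higher.

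Spiny projection neuron genes rose most uniformly. All 21 pan-striatal genes, all 7 direct-pathway genes and all 6 indirect-pathway genes were called higher at 14 days, with median log2 changes of 4.02, 3.98 and 3.76. Without 7-day replicate 2 these medians were 4.77, 5.85 and 5.53, and the indirect-pathway median was 3.02 without 7-day replicate 1. The pan-striatal genes summed to 809 and 1185 CPM at 7 days and to 15245 and 17020.5 CPM at 14 days. In bulk RNA, fewer cells of a type and less RNA per cell cannot be told apart. This holds for every cell type list described here.

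Among direct-pathway genes, the dopamine D1 receptor Drd1 (ENSMUSG00000021478; mm10, chromosome 13, 54051183 to 54055705, minus strand) stood at 1.84 and 12.9 CPM at 7 days and at 376 and 325 CPM at 14 days, a rise of 5.56 ± 0.74 (adjusted p = 7.85e-05). Both 14-day libraries lay far above both 7-day libraries, and the 7-day libraries differed between themselves: without 7-day replicate 1 the change was 4.76 and without 7-day replicate 2 it was 7.56. Tac1, which encodes substance P, went from 4.76 and 15.04 CPM to 396 and 235 CPM. Pdyn, the precursor of dynorphin, went from 9.75 and 17.6 CPM to 218 and 160.0 CPM. The muscarinic M4 receptor gene Chrm4 was even within each time, at 3.61 and 3.55 CPM and then 55.3 and 57.6 CPM (3.98 ± 0.39, adjusted p = 8.68e-06). The smallest rise of the list was that of the transcription factor Ebf1, 1.33 ± 0.29 (adjusted p = 0.00222).

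Indirect-pathway genes rose as well. Penk, the precursor of enkephalin, was at 35.4 and 119 CPM at 7 days and at 781 and 832 CPM at 14 days, a rise of 3.39 ± 0.60 (adjusted p = 0.000612), or of 2.76 without 7-day replicate 1 and 4.501 without 7-day replicate 2. The D2 receptor gene Drd2 went from 2.12 and 10.2 CPM to 200.2 and 231 CPM and the orphan receptor gene Gpr6 from 0.402 and 2.28 CPM to 65.7 and 93.6 CPM. Replicate 2 at 7 days was the higher of its pair for all 3. The adenosine receptor gene Adora2a rose by 4.13 ± 0.86 (adjusted p = 0.00181), by 3.28 without 7-day replicate 1 and by 6.56 without 7-day replicate 2. Sp9, a transcription factor needed for indirect-pathway neurons, was even within the pairs, at 4.02 and 5.24 CPM and then 23.8 and 33.7 CPM.

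Genes shared by both pathways followed. Pde10a, the phosphodiesterase enriched in striatal neurons, went from 19.8 and 64.1 CPM to 1687 and 1861 CPM. Dgkb, a diacylglycerol kinase, was close within both pairs, at 27.0 and 29.6 CPM and then 725 and 774 CPM (4.73 ± 0.23, adjusted p = 1.42e-07). The retinoid receptor gene Rxrg rose by 5.37 ± 0.27 (adjusted p = 1.42e-07) and the calmodulin-regulating gene Arpp21 by 4.66 ± 0.30 (adjusted p = 5.01e-07). Ppp1r1b, which encodes the dopamine signal integrator DARPP-32, rose least of the 21 genes, by 2.45 ± 0.45 (adjusted p = 0.000816), from 74.5 and 119.8 CPM to 391 and 668 CPM.

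**Figure D2:**
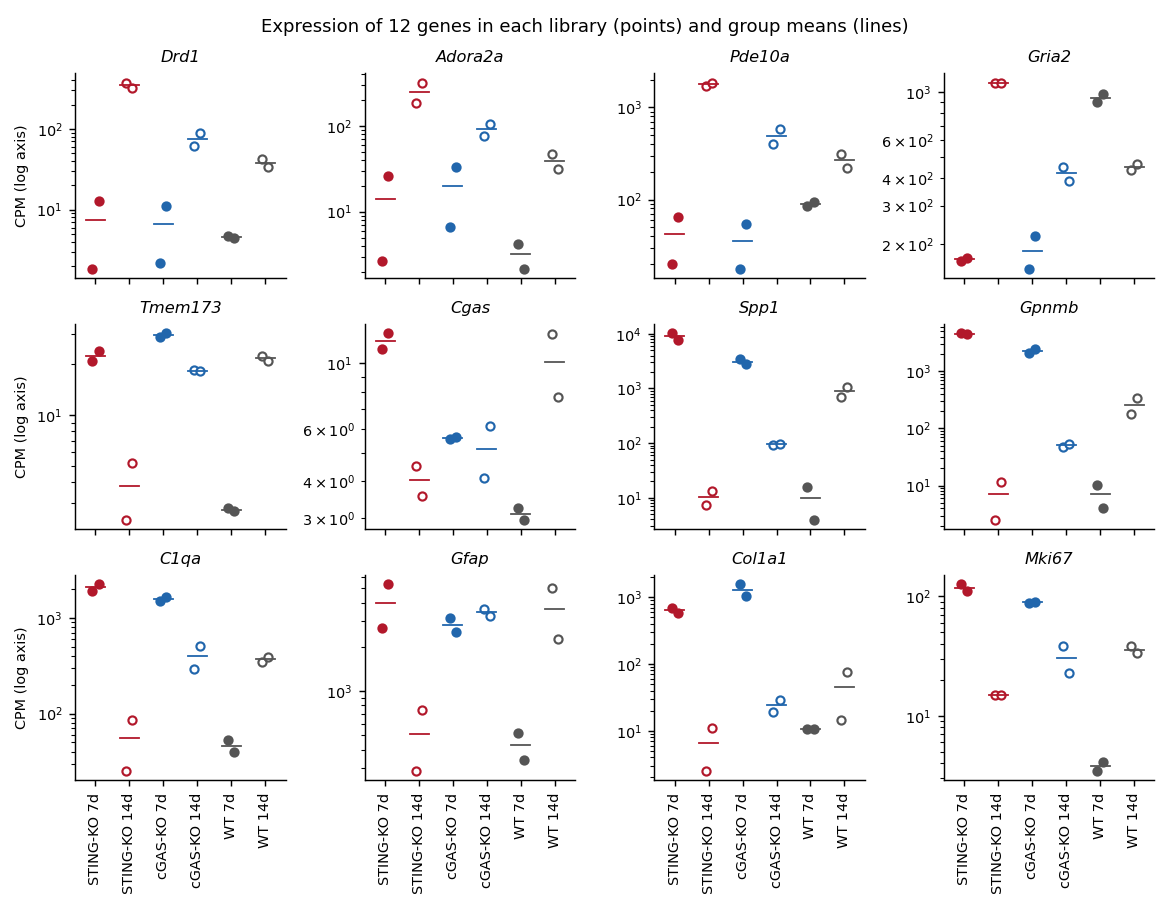
CPM of 12 genes on log axes in all 12 libraries, with 1 point per library (filled at 7 days, open at 14 days) and a line at each group mean. In the libraries labelled STING-KO, the 4 neuronal genes of the top row were higher in both 14-day libraries than in both 7-day libraries, and the other 8 genes were lower.

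General neuronal genes rose less and less uniformly. Of 28 pan-neuronal and presynaptic genes, 15 rose and 1 fell (median 0.80). Snap25, a vesicle fusion protein gene, stood at 571 and 352 CPM and then 1221 and 1084 CPM, and Syt1, its calcium sensor partner, at 265 and 206 CPM and then 914 and 831 CPM. The gene that fell was Nefh, the heavy neurofilament subunit of large axons (-0.73 ± 0.29, adjusted p = 0.0496), and its call was lost with any 1 of the 4 libraries left out, with adjusted p of 0.109 and 0.167 without 14-day replicates 1 and 2 and of 0.175 and 0.0832 without 7-day replicates 1 and 2. Without 14-day replicate 2 the number of fallen genes was 4.

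Receptor subunit genes lay between these groups in their median. Of 22 subunits of ionotropic glutamate and GABA-A receptors, 18 rose and none fell (median 1.98). The AMPA receptor subunit gene Gria2 stood at 167 and 172 CPM and then 1097 and 1104 CPM (2.70 ± 0.19, adjusted p = 7.63e-07). The NMDA receptor subunit gene Grin2b stood at 69.3 and 73.1 CPM and then 376 and 443 CPM. For both the pairs were close together and far from the other time. Of 28 voltage-gated channel genes 22 rose, among them the A-type potassium channel gene Kcnd2 (3.28 ± 0.16, adjusted p = 1.42e-07), and 2 fell, among them the T-type calcium channel gene Cacna1g (-2.07 ± 0.41, adjusted p = 0.00128, and -2.68 without 14-day replicate 2).

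Interneuron genes did not all move together. Of 13 genes, 11 rose and 2 fell. The cholinergic genes Chat, choline acetyltransferase, and Slc5a7, the choline transporter, rose from 0.402 and 1.85 CPM to 16.4 and 26.2 CPM and from 1.32 and 4.24 CPM to 62.0 and 70.5 CPM. Somatostatin (Sst) rose by 2.06 ± 0.39 (adjusted p = 0.00101). The 2 that fell encode calcium-binding proteins: Pvalb, at 16.3 and 22.6 CPM and then 3.54 and 2.08 CPM (-2.78 ± 0.49, adjusted p = 0.000619), and Calb2, at 41.8 and 24.3 CPM and then 3.30 and 1.76 CPM (-3.69 ± 0.45, adjusted p = 4.66e-05). Both are also expressed in cortical and thalamic cells, and the part of such cells in these falls was not tested.

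Of 8 thalamic neuron genes, 6 fell and none rose (median -2.80). Slc17a6, the vesicular glutamate transporter of subcortical neurons, fell (-4.56 ± 0.58, adjusted p = 6.21e-05), and the transcription factor gene Tcf7l2 went from 88.1 and 57.2 CPM to 11.3 and 10.8 CPM. Shox2, another thalamic transcription factor gene, was at 19.5 and 9.75 CPM at 7 days and had no count in either 14-day library. Of 11 cortical excitatory genes 5 fell and 2 rose; Emx1 stood at 4.36 and 3.28 CPM and then 0.240 and 0.326 CPM, and Neurod2 changed by -2.95 ± 0.51 (adjusted p = 0.000532), by -2.19 without 14-day replicate 1 and by -4.44 without 14-day replicate 2. The 2 cortical genes called higher, Rorb and Lamp5, are also expressed outside cortex, and the count of higher genes was 1 with 14-day replicate 1, 7-day replicate 1 or 7-day replicate 2 left out. The part of tissue sampling in these lists was not tested.

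Immediate early genes, which neurons and glia induce within minutes of stimulation, also split. Of 18, 11 rose and 5 fell. Egr1 went from 60.7 and 60.5 CPM to 456 and 263 CPM (2.57 ± 0.40, adjusted p = 0.000243), and Homer1, whose short form is activity-induced, from 29.1 and 21.8 CPM to 442 and 349.7 CPM (3.96 ± 0.37, adjusted p = 6.71e-06). Those that fell were Atf3, Jun, Junb, Ier2 and Btg2, which many injured or stimulated cell types induce. Atf3 stood at 90.3 and 80.6 CPM and then 2.28 and 4.23 CPM (-4.72 ± 0.43, adjusted p = 5.56e-06), and Jun at 114 and 142 CPM and then 17.9 and 32.1 CPM (-2.36 ± 0.24, adjusted p = 9.21e-06). The times did not overlap for any of these 4 genes, as for 77.8% of all genes tested.

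Myeloid genes showed the opposite change. All 24 genes of the disease-associated microglia list fell (median -3.66, or -4.87 without 14-day replicate 2), and their summed expression dropped from 63288 and 65613 CPM at 7 days to 2263 and 4502 CPM at 14 days. Spp1, which encodes the secreted phosphoprotein osteopontin (ENSMUSG00000029304; mm10, chromosome 5, 104435118 to 104441050, plus strand), was at 10182 and 7730.1 CPM at 7 days and at 7.26 and 13.4 CPM at 14 days (-9.76 ± 0.65, adjusted p = 8.91e-07). The glycoprotein gene Gpnmb, found on lipid-laden phagocytes, went from 4557 and 4521 CPM to 2.52 and 11.7 CPM (-9.34 ± 0.70, adjusted p = 1.63e-06), a change of -8.60 without 14-day replicate 1 and of -10.83 without 14-day replicate 2. Galectin-3 (Lgals3) went from 644 and 569 CPM to 2.16 and 2.93 CPM. In each of the 3, both 14-day libraries held less than 1% of the lower 7-day value. Apoe, the main lipid carrier of the brain, stood at 20822 and 24982 CPM and then 780.0 and 1676 CPM. Trem2, the lipid receptor of this state, was unequal at 14 days, at 13.6 and 99.8 CPM against 657 and 699 CPM at 7 days. Its change was -3.58 ± 0.63 (adjusted p = 0.000583), -2.76 without 14-day replicate 1 and -5.65 without 14-day replicate 2.

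Homeostatic microglia genes had a smaller median change. Of 14, 11 fell and none rose (median -1.79), with sums of 3942 and 4463 CPM and then 622 and 1191 CPM. The membrane protein gene Tmem119 fell (-3.31 ± 0.31, adjusted p = 6.41e-06, and -4.09 without 14-day replicate 2), and the fractalkine receptor gene Cx3cr1 stood at 537 and 613 CPM and then 63.2 and 142 CPM. The purinergic receptor gene P2ry12, which ramified microglia use to sense ATP, overlapped between the times, at 65.5 and 86.9 CPM and then 61.3 and 69.4 CPM (-0.22 ± 0.17, adjusted p = 0.273). Sall1, a microglial identity factor, changed by -0.86 ± 0.17 (adjusted p = 0.00121).

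Genes of invading monocytes, macrophages and neutrophils were lower at 14 days, while the lymphocyte list was not lower in its sum. Of 18 monocyte and macrophage genes, 14 fell and none rose, with sums of 446 and 408 CPM and then 23.2 and 21.7 CPM and a median of -4.55, or -4.09 with the gene at 0 set to its bound and -5.19 without 14-day replicate 1. The scavenger receptor gene Msr1 went from 186 and 149 CPM to 0.540 and 1.17 CPM (-7.62 ± 0.31, adjusted p = 1.37e-07) and F13a1, a coagulation factor subunit of macrophages, from 47.8 and 54.2 CPM to 2.10 and 0.716 CPM (-5.15 ± 0.34, adjusted p = 5.68e-07). Without 14-day replicate 2 the change of Msr1 was -8.28, and without 14-day replicate 1 that of F13a1 was -6.13. Of 12 neutrophil genes 7 passed the filter and 4 fell. The growth factor receptor gene Csf3r, which microglia also express, changed by -2.25 ± 0.44 (adjusted p = 0.00126), by -1.56 without 14-day replicate 1 and by -3.56 without 14-day replicate 2. Of 20 lymphocyte genes 17 passed the filter. Summed over all 20, expression was 25.0 and 39.1 CPM at 7 days and 46.3 and 73.6 CPM at 14 days. Only Cd4 was called higher (5.51 and 8.95 CPM and then 29.0 and 40.6 CPM, 2.26 ± 0.36, adjusted p = 0.000243), while 3 were called lower. Fewer were called lower without 14-day replicate 1, 14-day replicate 2 or 7-day replicate 2. The list median of -0.87 was -3.00 without 14-day replicate 2 and 0.10 without 7-day replicate 2. Myeloid cells can also express Cd4, and the source of its rise was not tested.

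Effector genes of innate immunity followed the myeloid lists. Of 14 complement genes 13 fell, and C1qa, a chain of the initiating C1q complex made by microglia, went from 1929.7 and 2254 CPM to 25.3 and 85.1 CPM (-5.25 ± 0.51, adjusted p = 8.75e-06), a change of -4.61 without 14-day replicate 1 and of -6.38 without 14-day replicate 2. All 19 phagocyte receptor and oxidase genes fell. Among them the Fc receptor gamma chain gene Fcer1g stood at 438 and 445 CPM and then 11.7 and 21.03 CPM (-4.76 ± 0.26, adjusted p = 1.79e-07). All 9 inflammasome and pyroptosis genes fell as well. Casp1, the protease that matures interleukin-1 beta, stood at 18.2 and 17.8 CPM and then 1.38 and 2.02 CPM, and Gsdmd, the pore-forming gasdermin D, at 42.0 and 41.8 CPM and then 4.08 and 6.84 CPM. Of 9 necroptosis and death receptor genes 8 fell, including the kinase gene Ripk3 (-3.96 ± 0.49, adjusted p = 3.84e-05) and its substrate Mlkl (-3.59 ± 0.46, adjusted p = 4.41e-05). The times did not overlap for any of these genes, as for 77.8% of all genes tested.

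Of 13 cytokine genes that passed the filter, of 15 listed, 8 fell and 2 rose. Tnf stood at 8.83 and 7.26 CPM at 7 days and had no count in either 14-day library, which makes it at least 42.9-fold lower against a floor of 3 counts per library. Tgfb1, an anti-inflammatory cytokine of microglia, went from 187 and 189 CPM to 5.46 and 12.3 CPM (-4.41 ± 0.29, adjusted p = 6.39e-07, and -5.12 without 14-day replicate 2). The 2 called higher were Il18 and the microglial growth factor Il34, and their number was 1 with any 1 of the 4 libraries left out: Il18 was not called without 14-day replicate 1 (adjusted p = 0.133) or 7-day replicate 1 (0.0699), and Il34 not without 14-day replicate 2 (0.19) or 7-day replicate 2 (0.134). Of 20 chemokine genes that passed, 14 fell. Ccl4, which recruits monocytes and T cells, stood at 34.5 and 33.0 CPM and then 0.540 and 1.56 CPM, and Cxcl16 at 47.9 and 48.5 CPM and then 2.40 and 5.86 CPM. The exception was Cx3cl1, the neuronal ligand of Cx3cr1, which rose from 133 and 124 CPM to 525 and 587 CPM (2.12 ± 0.22, adjusted p = 1.05e-05). Summed over all 22 listed chemokines, expression was 592 and 626 CPM at 7 days and 644 and 773 CPM at 14 days, where Cx3cl1 made up most of the sum.

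Genes of the cGAS-STING pathway fell, Tmem173 and Cgas included. Of 12 genes that passed the filter, of 14 listed, 10 fell and none rose (median -1.38). Irf3, the transcription factor phosphorylated downstream of STING, stood at 55.5 and 58.6 CPM and then 22.8 and 26.4 CPM (-1.22 ± 0.15, adjusted p = 4.36e-05). The kinase gene Tbk1, which phosphorylates it, overlapped between the times, at 59.6 and 56.1 CPM and then 65.2 and 59.2 CPM (0.11 ± 0.13, adjusted p = 0.494). Its relative Ikbke changed by -2.88 ± 0.24 (adjusted p = 2.43e-06). Enpp1, which hydrolyses cGAMP outside cells, fell from 69.7 and 63.8 CPM to 10.6 and 11.1 CPM, and the interferon receptor chain gene Ifnar2 from 62.9 and 77.2 CPM to 14.7 and 17.3 CPM.

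Interferon-stimulated genes fell less evenly than the myeloid lists. Of 59, 32 fell and 2 rose (median -1.34), and their summed expression was 1396 and 1603 CPM and then 519.5 and 842 CPM. The count of genes that fell rests on single libraries, since it was 19 without 14-day replicate 1 and 20 without 7-day replicate 2. To show the sequence that the interferon-activated complex ISGF3 recognises, the 150 bases upstream of the start of 3 of these genes are printed from RefSeq (GRCm38.p6, 5′ to 3′ on the gene's strand), with matches to the interferon-stimulated response element in capitals (GAAA, any 2 bases and GAAA again, or the reverse complement).
Isg15, chr4:156200819-156200968, minus strand: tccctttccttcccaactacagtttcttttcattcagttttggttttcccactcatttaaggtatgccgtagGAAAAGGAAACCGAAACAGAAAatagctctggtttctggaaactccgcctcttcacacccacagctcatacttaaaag
Ifit3, chr19:34583379-34583528, plus strand: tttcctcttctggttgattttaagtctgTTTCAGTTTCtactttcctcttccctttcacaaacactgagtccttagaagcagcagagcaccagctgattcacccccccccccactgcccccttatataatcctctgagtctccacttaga
Bst2, chr8:71537473-71537622, minus strand: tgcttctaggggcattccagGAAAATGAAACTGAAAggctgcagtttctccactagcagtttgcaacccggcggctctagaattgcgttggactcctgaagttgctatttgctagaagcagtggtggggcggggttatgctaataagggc

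The Isg15 stretch holds 3 overlapping matches that start 66 to 78 bases before the gene start, the Bst2 stretch 2 and the Ifit3 stretch 1. Within 250 bases upstream, searched on both strands and with overlaps between matches allowed, 21 of the 45 interferon-stimulated genes with a RefSeq promoter held a match (46.7%), against 3.46% of 27025 promoters. A match is a description and not a binding site. Of the 21 genes with a match 10 fell and 0 rose (median -1.26), and of the 24 without one 12 fell and 2 rose (median -1.03).

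The 3 genes shown did not change alike. Bst2, which tethers budding virions, went from 105.0 and 117 CPM to 2.64 and 8.53 CPM (-4.32 ± 0.43, adjusted p = 1.12e-05), a change of -3.69 without 14-day replicate 1 and of -5.41 without 14-day replicate 2. The ubiquitin-like modifier gene Isg15 stood at 8.37 and 9.16 CPM and then 3.60 and 3.45 CPM (-1.31 ± 0.47, adjusted p = 0.0309). Its call was lost with any 1 library left out, with adjusted p of 0.121 and 0.114 without 14-day replicates 1 and 2 and of 0.0693 and 0.102 without 7-day replicates 1 and 2. Ifit3, an antiviral RNA-binding factor, did not pass at -1.39 ± 0.56 (adjusted p = 0.0519), with 27.4 and 36.7 CPM and then 11.5 and 12.96 CPM, and its reads may be shared with the near-identical Ifit3b. Slfn2 changed by -3.41 ± 0.37 (adjusted p = 1.27e-05) and Ube2l6, the conjugating enzyme for Isg15, by -2.38 ± 0.24 (adjusted p = 7.17e-06). The genes called higher were Cmpk2, a mitochondrial nucleotide kinase (16.1 and 14.7 CPM and then 30.5 and 35.0 CPM), and the RNA editing enzyme gene Adar, whose call was lost without 14-day replicate 2 (adjusted p = 0.0899) or 7-day replicate 2 (adjusted p = 0.102).

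Antigen presentation genes fell in both classes. Of 17 MHC class I and immunoproteasome genes 15 fell (median -2.18). The light chain gene B2m stood at 696 and 784 CPM and then 112 and 297 CPM, with replicate 2 the higher of the 14-day pair (-1.86 ± 0.35, adjusted p = 0.000934). Psmb8, an immunoproteasome subunit, went from 46.6 and 51.3 CPM to 1.62 and 3.45 CPM. Of 10 class II genes 8 fell, among them H2-Aa (-3.77 ± 0.72, adjusted p = 0.00104) and the invariant chain gene Cd74 (-3.04 ± 0.66, adjusted p = 0.00239). Without 14-day replicate 2 the changes were -2.74 for B2m, -4.83 for H2-Aa and -3.93 for Cd74. That of H2-Aa was -3.14 without 14-day replicate 1 and -3.15 without 7-day replicate 2, and that of Cd74 was -2.37 without 7-day replicate 2. Reads of the class I H2 genes can be shared between near-identical copies.

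**Figure D3:**
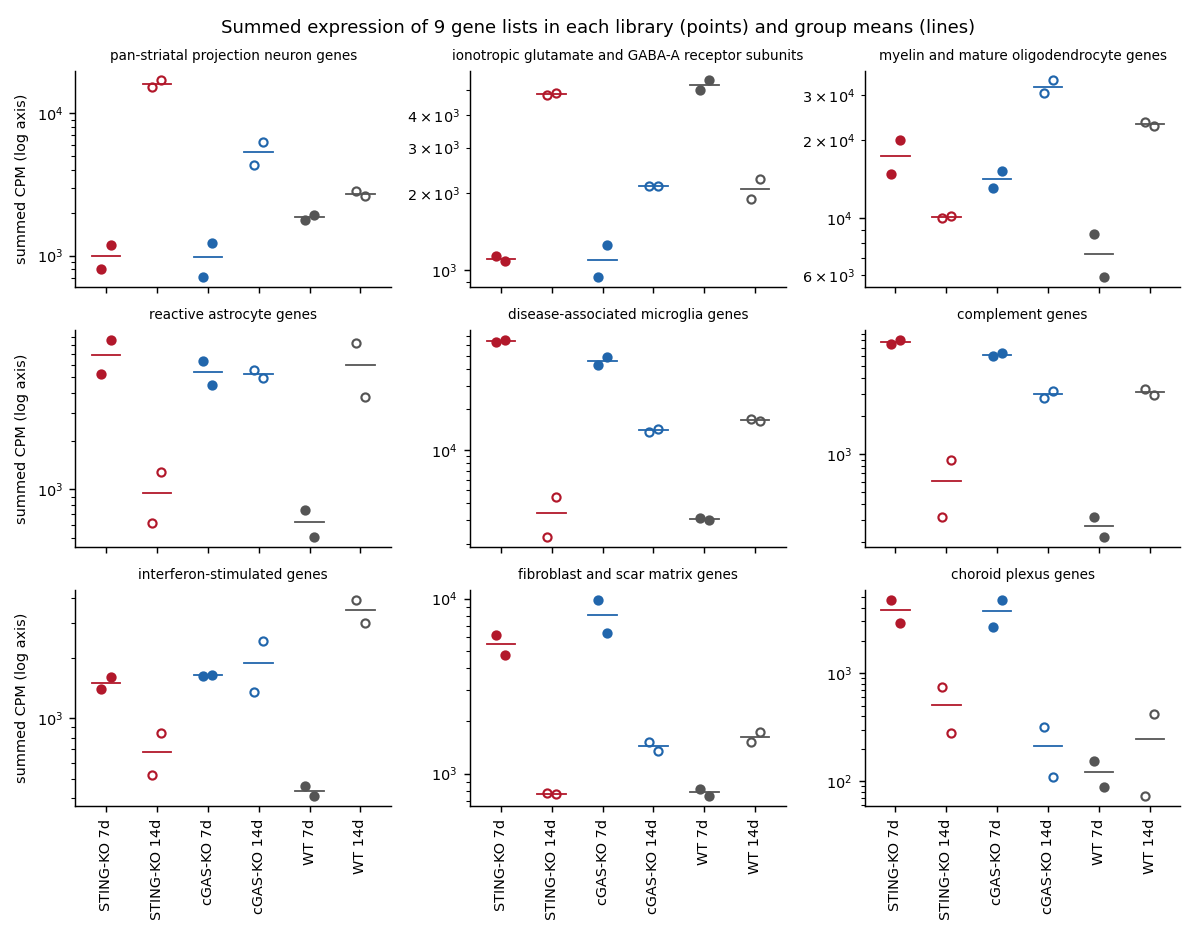
Summed CPM of 9 gene lists on log axes in all 12 libraries, with 1 point per library (filled at 7 days, open at 14 days) and a line at each group mean. In the libraries labelled STING-KO, both 14-day values lay above both 7-day values for the 2 neuronal lists and below them for the other 7.

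Astrocyte genes fell where they mark reactivity. Of 20 reactive astrocyte genes 17 fell and none rose (median -2.86), with sums of 5238 and 8569 CPM and then 618 and 1276 CPM. The intermediate filament gene Gfap went from 2671 and 5339.6 CPM to 288 and 741 CPM (-2.96 ± 0.52, adjusted p = 0.000543, and -3.82 without 14-day replicate 2) and Vim, another filament gene, from 1059.6 and 1547 CPM to 132 and 202 CPM. Emp1, a membrane protein gene, was close within both pairs, at 120.2 and 106 CPM and then 5.16 and 5.86 CPM (-4.36 ± 0.20, adjusted p = 1.42e-07). Homeostatic astrocyte genes moved both ways, with 2 of 16 higher and 7 lower. The glutamate transporter gene Slc1a2 went from 1034 and 1479 CPM to 4553 and 3907 CPM (1.75 ± 0.26, adjusted p = 0.00012), and the bicarbonate cotransporter gene Slc4a4 rose by 1.40 ± 0.18 (adjusted p = 5.29e-05). The water channel gene Aqp4 fell from 467 and 592 CPM to 166 and 219 CPM (-1.46 ± 0.23, adjusted p = 0.000201). Agt, angiotensinogen, fell further, to 5.94 and 4.95 CPM from 152 and 75.7 CPM. It is known as an astrocyte gene enriched outside the telencephalon, and the part of tissue sampling in its fall was not tested.

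Oligodendrocyte lineage genes fell in part. Of 17 myelin and mature oligodendrocyte genes 8 fell and 2 rose (median -0.47). Fewer were called lower without 14-day replicate 1 (median -0.43). Without 7-day replicate 2 the median was -0.26, but more members were called higher than lower. The balance of calls, and not the sign of the median, thus rested on that library. Myelin basic protein (Mbp) went from 6659 and 8788 CPM to 1870.2 and 2705 CPM (-1.76 ± 0.28, adjusted p = 0.000257). Bcas1, which marks newly myelinating cells, changed by -1.77 ± 0.26 (adjusted p = 0.000138) and the lineage factor Sox10 by -1.33 ± 0.28 (adjusted p = 0.00197). Of 8 precursor genes 5 fell and 2 rose, with 2 fallen without 14-day replicate 1 and 3 without 7-day replicate 2. The proteoglycan gene Cspg4, shared with pericytes, went from 170.0 and 141 CPM to 13.8 and 29.7 CPM (-2.84 ± 0.31, adjusted p = 2.06e-05, and -3.51 without 14-day replicate 2), while Pdgfra, which defines the precursors, stood at 100.7 and 98.4 CPM and then 91.6 and 79.4 CPM (-0.22 ± 0.19, adjusted p = 0.353).

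Scar matrix genes were lower at 14 days, and vessel-wall genes were lower in part. Of 23 fibroblast and scar matrix genes 21 fell and 1 rose (median -3.81). Col1a1, the main chain of fibrillar collagen I (ENSMUSG00000001506; mm10, chromosome 11, 94936224 to 94953042, plus strand), went from 694 and 590.3 CPM to 2.52 and 10.8 CPM (-6.60 ± 0.80, adjusted p = 4.08e-05), a change of -5.88 without 14-day replicate 1 and of -8.01 without 14-day replicate 2. Fibronectin (Fn1) went from 1219 and 824 CPM to 66.3 and 61.0 CPM, and thrombospondin 1 (Thbs1) from 347 and 199 CPM to 1.80 and 2.41 CPM. No 14-day value of these 3 came near a 7-day value. Periostin (Postn) did not pass (-0.84 ± 0.37, adjusted p = 0.072), but did without 7-day replicate 2 (-1.19, adjusted p = 0.0327). The gene that rose was Col6a1, a chain of microfibrillar collagen VI (84.4 and 83.7 CPM and then 275 and 210.2 CPM; 1.53 ± 0.33, adjusted p = 0.00212). Of 13 metalloproteinases and inhibitors 12 fell, led by the macrophage elastase Mmp12, at 69.0 and 103 CPM and then 0.180 and 0.0651 CPM.

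Of 11 pericyte and smooth muscle genes 8 fell and none rose (median -1.30), where 29.5% of all genes tested fell. Fewer were called lower without 14-day replicate 1 or 7-day replicate 1, so this count rests on single libraries. Pdgfrb, the pericyte receptor for PDGF, went from 144 and 107 CPM to 21.6 and 29.8 CPM (-2.29 ± 0.28, adjusted p = 4.35e-05), and the aminopeptidase gene Anpep, also found on myeloid cells, from 117 and 121 CPM to 2.46 and 3.19 CPM (-5.40 ± 0.25, adjusted p = 1.42e-07). Of 16 endothelial genes 7 fell and none rose (median -0.44), beside the same 29.5% of all genes tested. Here too fewer were called lower without 14-day replicate 1 or 7-day replicate 1, so no general fall of endothelial genes is shown. The junction protein gene Cdh5 changed by -2.15 ± 0.37 (adjusted p = 0.000538), while the VEGF receptor gene Flt1 stood at 80.8 and 85.1 CPM and then 97.9 and 107 CPM (0.31 ± 0.16, adjusted p = 0.114).

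Choroid plexus genes fell in 13 of 15 members, or 7 without 14-day replicate 2 and 8 without 7-day replicate 1. The folate receptor gene Folr1 stood at 32.0 and 17.5 CPM and then 1.56 and 1.63 CPM (-3.95 ± 0.44, adjusted p = 1.55e-05). Transthyretin (Ttr), the most abundant transcript of this epithelium, stood at 4226 and 2636 CPM and then 612 and 206 CPM (-3.07 ± 0.93, adjusted p = 0.0149), and its call was lost without 14-day replicate 2 (adjusted p = 0.127) or 7-day replicate 1 (adjusted p = 0.0609). Without 14-day replicate 1 its change was -4.05. The choroid plexus lies in the ventricle beside the striatum, and how much of it each sample held was not tested.

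Genes of lipid handling and of the lysosome fell together. Of 16 genes of lipid uptake, droplets and efflux 13 fell and 1 rose. Plin2, the coat protein of lipid droplets, went from 995 and 730.0 CPM to 9.78 and 11.7 CPM (-6.33 ± 0.32, adjusted p = 1.47e-07), and the fatty acid receptor gene Cd36 from 291 and 188 CPM to 1.14 and 0.912 CPM (-7.85 ± 0.41, adjusted p = 2.22e-07). The cholesterol exporter gene Abca1 fell less, from 700.2 and 745 CPM to 132 and 191 CPM. Dgat2, a triglyceride synthesis enzyme, was the gene that rose, at 24.4 and 41.0 CPM and then 128 and 158 CPM. Of 24 lysosomal genes 21 fell and 1 rose. The protease gene Ctsz stood at 1320.4 and 1520.1 CPM and then 40.7 and 74.1 CPM and the membrane protein gene Lamp1 at 1271 and 1392 CPM and then 344 and 416 CPM (-1.81 ± 0.17, adjusted p = 4.19e-06). Atp6v1h, a subunit of the proton pump that neurons also express, rose by 1.09 ± 0.12 (adjusted p = 1.75e-05).

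Cholesterol synthesis genes went the other way in part, with 11 of 23 higher and 4 lower. The higher numbered 6 without 14-day replicate 1 and 5 without 7-day replicate 1. Squalene synthase (Fdft1) rose by 1.28 ± 0.20 (adjusted p = 0.000175). The 4 that fell were the mevalonate pathway enzymes Pmvk, Mvd and Mvk and the sterol isomerase Ebp, by 1.08 to 1.71 on the log2 scale.

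Cell cycle genes fell in 37 of 40 members, with 1 higher (median -2.18). The higher one, Anln (0.82 ± 0.28, adjusted p = 0.0262), was not called without 14-day replicate 1 or without either 7-day replicate. Mature oligodendrocytes also express Anln, and the source of its rise was not tested. The promoters of 2 cell cycle genes that fell are printed because both hold the cell cycle homology region letters TTTGAA, which the DREAM repressor complex recognises in genes of late cell cycle phases (RefSeq, GRCm38.p6, 150 bases upstream of the start, matches on either strand in capitals).
Mki67, chr7:135716380-135716529, minus strand: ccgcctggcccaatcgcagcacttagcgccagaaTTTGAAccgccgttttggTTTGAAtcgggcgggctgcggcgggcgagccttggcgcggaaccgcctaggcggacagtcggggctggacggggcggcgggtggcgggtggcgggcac
Cdk1, chr10:69352913-69353062, minus strand: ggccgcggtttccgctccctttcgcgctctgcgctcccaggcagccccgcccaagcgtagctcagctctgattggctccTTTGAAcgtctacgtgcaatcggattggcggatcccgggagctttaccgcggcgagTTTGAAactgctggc

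Each stretch holds 2 matches. The proliferation marker Mki67 stood at 126 and 110.1 CPM and then 14.9 and 14.8 CPM (-2.99 ± 0.22, adjusted p = 1.01e-06), and the mitotic kinase gene Cdk1 at 36.2 and 30.2 CPM and then 2.16 and 3.19 CPM (-3.64 ± 0.28, adjusted p = 1.21e-06). Both pairs were close at both times. Of the 33 cell cycle genes with a RefSeq promoter 9 held a match within 250 bases (27.3%), against 18.3% of all promoters. All 9 with a match fell (median -2.84), as did 23 of the 24 without one (median -2.17). Searched by exact consensus in the same way, the sterol element was found in 0 of 16 cholesterol gene promoters (0.0814% of all), the lysosomal CLEAR element in 0 of 19 lysosomal ones (0.27%) and the cyclic AMP element in 2 of 14 immediate early ones (1.77%). Mcm3, a subunit of the replicative helicase, changed by -2.93 ± 0.21 (adjusted p = 7.96e-07) and the mitotic kinase gene Aurkb by -3.38 ± 0.25 (adjusted p = 9.76e-07).

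Neuroblast genes rose in part. Of 12 subventricular progenitor and neuroblast genes 7 rose and 2 fell (median 2.00), with 1 fallen without 14-day replicate 1 or either 7-day replicate. Doublecortin (Dcx), which marks migrating neuroblasts, went from 15.03 and 12.2 CPM to 68.8 and 60.8 CPM (2.25 ± 0.21, adjusted p = 4.53e-06). The transcription factor genes Dlx1 and Dlx6, which striatal neurons also express, went from 3.44 and 4.45 CPM to 33.3 and 28.5 CPM and from 0.574 and 2.49 CPM to 22.9 and 26.0 CPM. Nestin (Nes), a filament of progenitors that reactive astrocytes and vessels share, fell from 52.8 and 62.1 CPM to 6.12 and 9.90 CPM (-2.85 ± 0.31, adjusted p = 1.54e-05).

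Stress, iron and growth factor genes were mixed. Of 15 integrated stress response genes 11 fell, including the central factor Atf4 (139 and 125 CPM and then 29.8 and 35.0 CPM; -2.02 ± 0.18, adjusted p = 3.45e-06). Asparagine synthetase (Asns), an Atf4 target, rose from 27.9 and 21.8 CPM to 95.3 and 80.5 CPM (1.82 ± 0.16, adjusted p = 3.85e-06). Of 15 NRF2, haem and iron genes 6 fell and 4 rose, not far from the shares over all genes tested (29.5% lower and 27.4% higher). Hmox1, which degrades haem, went from 199 and 146 CPM to 3.48 and 5.67 CPM (-5.24 ± 0.29, adjusted p = 1.97e-07), and the glutathione synthesis gene Gclm from 62.2 and 60.3 CPM to 123 and 115 CPM. Of 13 growth factor genes that passed the filter 7 fell and 3 rose, the latter near the 27.4% over all genes tested. Igf1, made by microglia after injury, fell from 354 and 259.6 CPM to 2.94 and 12.7 CPM (-5.31 ± 0.48, adjusted p = 5.4e-06), a change of -4.59 without 14-day replicate 1 and of -6.72 without 14-day replicate 2. Vegfa, which drives vessel growth, rose from 41.3 and 47.5 CPM to 108 and 92.5 CPM (1.17 ± 0.15, adjusted p = 4.45e-05).

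Cytosolic ribosomal protein genes fell in 59 of 77 members (median -1.09), and unequally. Rps28 went from 196 and 215 CPM to 10.2 and 9.64 CPM (-4.37 ± 0.28, adjusted p = 4.71e-07), while Rpl3 stood at 628 and 659 CPM and then 623 and 481 CPM (-0.22 ± 0.17, adjusted p = 0.292). Of 33 nuclear respiratory chain genes 11 fell and 7 rose, close to the shares over all genes. Leaving out a library moved both counts: 3 rose without 7-day replicate 1, 4 without 7-day replicate 2 or 14-day replicate 1 and 12 without 14-day replicate 2, and 6 fell without 7-day replicate 2 and 7 without 14-day replicate 2. The complex I genes Ndufb8 and Ndufs1 moved apart, by -2.27 ± 0.21 (adjusted p = 4.02e-06) and 0.88 ± 0.13 (adjusted p = 0.000108). Among protein-coding genes the log2 change tended to be lower for short genes than for long ones. Over 13893 protein-coding genes with a logCPM of at least 1, the log2 change had a Spearman's rho of 0.32 with exon length, and its median went from -0.63 for the shortest genes, up to 2953 bases, to 0.44 for the longest, from 7021 bases. The same rho was 0.23 in the libraries labelled cGAS-KO and -0.01 in libraries labelled WT. These are descriptions across genes, which are not independent, and the part of transcript length in the ribosomal and other lists was not tested.

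**Figure D4:**
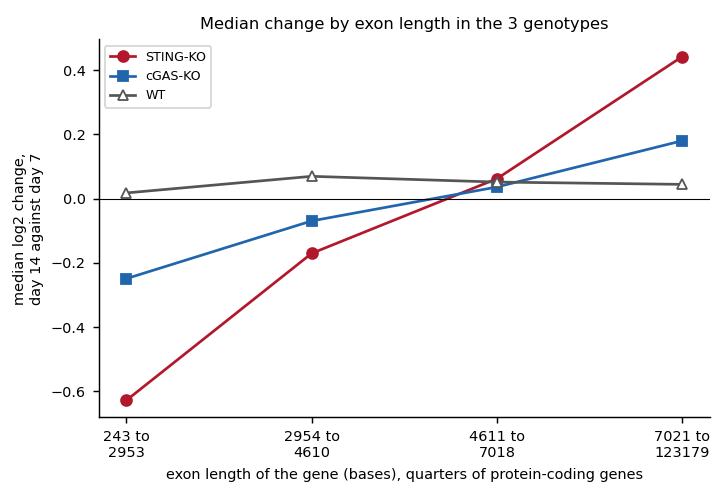
Median log2 change of 14 against 7 days (vertical axis) for protein-coding genes in 4 equal groups by exon length in bases (horizontal axis), with 1 line per genotype. The line of the libraries labelled STING-KO climbs from -0.63 to 0.44, and the WT line stays between 0.02 and 0.07.

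The genes with the largest changes were in part striatal and myeloid genes. Among genes with a logCPM of at least 1 and no overlap between the times, the 8 largest rises were Olfr1393, Ano2, Gpr6, Dazl, Epyc, Ankk1, Drd1 and Cntnap3, by 5.44 to 6.50 on the log2 scale. Without 7-day replicate 2 the rises of Olfr1393, Ano2, Gpr6, Epyc, Ankk1 and Drd1 were 7.39, 6.71, 7.60, 7.88, 7.42 and 7.56, and without 7-day replicate 1 those of Gpr6, Epyc, Ankk1 and Drd1 were 5.12, 4.97, 4.86 and 4.76. Ano2, a calcium-activated chloride channel gene, went from 0.287 and 0.741 CPM to 29.7 and 32.3 CPM. Cntnap3, a neuronal adhesion gene, went from 1.84 and 1.64 CPM to 72.3 and 78.7 CPM (5.44 ± 0.31, adjusted p = 2.33e-07). Ankk1 lies next to Drd2 in the genome, and Olfr1393 and Dazl, an odorant receptor gene and a germ cell gene, are not known as striatal markers. The 8 largest falls were Col10a1, Shox2, Saa3, Tnf, H19, Spp1, Msc and Mmp12. Col10a1, a collagen of hypertrophic cartilage, was at 501 and 100.8 CPM at 7 days and had no count at 14 days, at least 1604-fold lower against the floor of 3 counts per library. Saa3, an acute phase gene of macrophages and fibroblasts, was at 4.59 and 22.9 CPM and then at 0 in both libraries, at least 73.3-fold lower. The imprinted RNA gene H19 went from 71.6 and 16.5 CPM to 1 count over both 14-day libraries, a ratio of 1375 with a 95% counting interval of 246 to 54340. The 7-day pair was itself far apart for Col10a1, Saa3 and H19.

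Set beside the other genotypes, the change of the libraries labelled STING-KO resembled that of the libraries labelled cGAS-KO in direction and opposed that of WT in many lists, and the 3 comparisons of times share no library. In libraries labelled WT 24.1% of genes were called higher and 19.7% lower at 14 days, and in libraries labelled cGAS-KO 13.4% and 17.0%. Of the 11274 genes called here, 4852 were called in the same direction in libraries labelled cGAS-KO, which is 43.0% of the calls here and 80.6% of those in libraries labelled cGAS-KO, and 106 in the opposite one. With WT, 1991 calls shared direction (17.7% of the calls here, 22.9% of those in libraries labelled WT) and 3664 were opposite (32.5% and 42.1%). The test of the difference itself, STING-KO change minus WT change, called 10292 genes (51.9%; 24.3% higher and 27.6% lower), and that against cGAS-KO called 3830 (19.3%), 1702 higher (8.59%) and 2128 lower (10.7%). The count against cGAS-KO was 2147 without 14-day cGAS-KO replicate 2, 2288 without 7-day cGAS-KO replicate 2 and 1889 without 7-day STING-KO replicate 2.

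**Figure D5:**
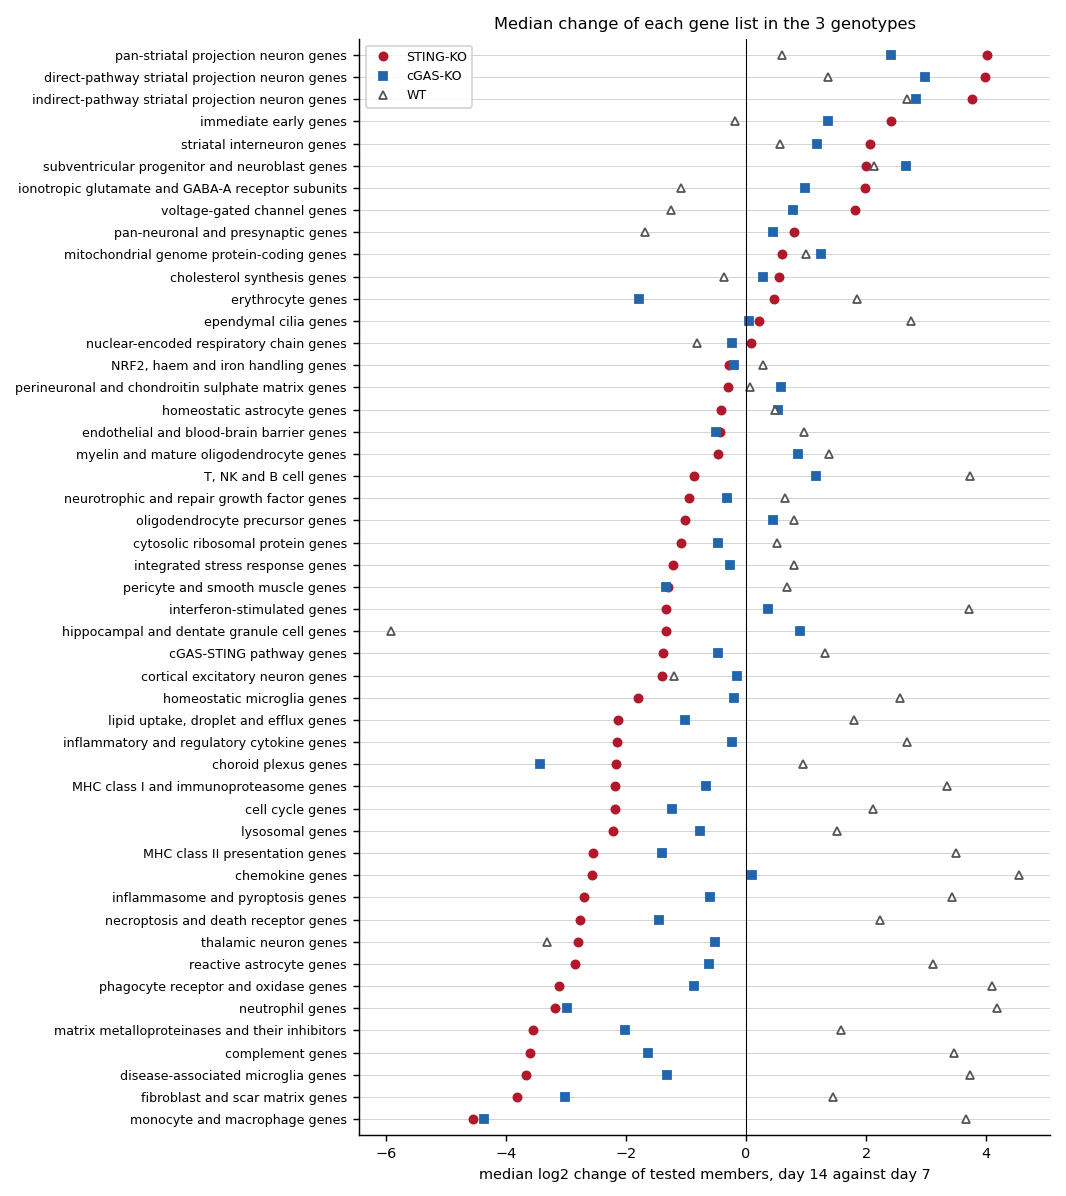
Median log2 change of 14 against 7 days of each gene list (horizontal axis), with 1 symbol per genotype and lists in the order of the STING-KO medians. For the disease-associated microglia genes the medians are -3.66 in libraries labelled STING-KO, -1.32 in libraries labelled cGAS-KO and 3.73 in libraries labelled WT.

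Against cGAS-KO, myeloid and glial lists had lower changes. Of 24 disease-associated microglia genes 23 had a lower change in the libraries labelled STING-KO, with 14-day cGAS-KO sums of 13622 and 14349.6 CPM against 2263 and 4502 CPM. Spp1 stood at 3413 and 2812 CPM and then 92.4 and 97.0 CPM in libraries labelled cGAS-KO, and the STING-KO change minus that one was -4.72 ± 0.68 (adjusted p = 0.00197). Bst2 differed by -3.15 ± 0.55 (adjusted p = 0.00409) and Gfap by -3.24 ± 0.69 (adjusted p = 0.01). Gfap stood at 3132 and 2533 CPM at 7 days and 3652 and 3232 CPM at 14 days in libraries labelled cGAS-KO, and that change of 0.28 ± 0.48 did not pass (adjusted p = 0.697). Of 59 interferon-stimulated genes 24, of 14 complement genes 9 and of 17 oligodendrocyte genes 11 had a lower change here than in libraries labelled cGAS-KO. Mbp rose in libraries labelled cGAS-KO, from 5486 and 6444 CPM to 12630.5 and 16812 CPM, and fell here, a difference of -3.06 ± 0.40 (adjusted p = 0.00136).

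Neuronal lists differed in the other direction. Of 21 pan-striatal genes 10 rose further here than in libraries labelled cGAS-KO and none less, among them Dgkb (difference 2.43 ± 0.29, adjusted p = 0.00123) and Arpp21 (2.24 ± 0.37, adjusted p = 0.00313). Of 22 receptor subunits the same held for 13; Grin2b stood at 73.4 and 119 CPM and then 103 and 102 CPM in libraries labelled cGAS-KO (difference 2.43 ± 0.32, adjusted p = 0.00139). Drd1 rose in libraries labelled cGAS-KO from 2.17 and 11.2 CPM to 61.1 and 89.1 CPM, and the difference of 2.10 ± 0.93 did not pass (adjusted p = 0.14). Scar matrix genes fell in both, 22 of 23 in libraries labelled cGAS-KO, and their changes differed in 6. Col1a1 changed by -5.74 there and by -6.60 here, with a difference of -0.86 ± 0.92 (adjusted p = 0.547), which does not show that the falls were equal.

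Against WT, myeloid and interferon lists differed nearly throughout. All 24 disease-associated microglia genes rose in libraries labelled WT, and all 24 changes were lower here. Spp1 stood at 15.7 and 3.94 CPM and then 692 and 1085 CPM in libraries labelled WT, and the difference was -16.27 ± 0.87 (adjusted p = 1.38e-07). C1qa stood at 53.3 and 39.5 CPM and then 349.6 and 393 CPM there, so that the 14-day libraries labelled STING-KO lay near the 7-day libraries labelled WT and below the 14-day ones. Of 59 interferon-stimulated genes 58 rose in libraries labelled WT, and 57 changes were lower here. Receptor subunit genes fell in libraries labelled WT in 15 of 22 cases, and 20 changes were higher here. Gria2 stood at 901 and 977 CPM and then 437 and 464 CPM in libraries labelled WT (difference 3.76 ± 0.26, adjusted p = 4.05e-07). Dcx rose in all 3 genotypes, by 2.25 ± 0.21 here, 2.24 ± 0.21 in libraries labelled cGAS-KO and 2.00 ± 0.20 in libraries labelled WT.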

How the data were processed

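Striatal polyA+ RNA was read from both ends on an Illumina HiSeq, per the labels. The authors deposited 1 table of raw counts over Ensembl IDs for each library, made with HISAT2, featureCounts and mm10, per the submitters' processing notes; versions, annotation release and strand setting are not given in the sources used here, so reads of overlapping or antisense partners may be shared. The counts as deposited are whole and unscaled. IDs with no symbol took 0.00482% to 0.0147% of them.

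Symbols and coordinates came from GENCODE M21 (GRCm38, the assembly of mm10), which matched 54495 of 54532 IDs. edgeR 4.0.16 (R 4.3.3) fitted all 12 libraries with 1 factor of 6 groups (filterByExpr, minimum count 10 and total 15; TMM; robust quasi-likelihood, legacy form off; 6 residual degrees of freedom; biological coefficient of variation 0.194). The contrasts were 14 against 7 days in each genotype and the differences between them, with Benjamini-Hochberg adjustment at 0.05 over 19822 genes. On simulated counts for the STING-KO comparison, run over 19822 genes, 34% of 100 genes changed 2-fold and 85% of 100 changed 4-fold were recovered, with 6 false among 125 calls. No other genes were changed in the simulation, whereas 56.9% of genes were called in the data. The adjustment is stricter when few genes change, so these rates do not describe the comparison itself. Floors use 3 counts per library and, like the 95% interval, cover counting error only. All 6 pairs of libraries differed beyond sampling noise.

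The comparison, its lists and the naming rule were chosen with earlier results of these data known. The rule took Tmem173 and Cgas, the 8 largest rises and falls (logCPM of at least 1, no overlap, no clone names), the first 4 and up to 3 further members of each list by adjusted p, list members against their list's direction, and the 5 largest differences from WT and from cGAS-KO in each direction; the text names a part of these, and some genes it took are not reported here. Promoter sequences are RefSeq's (GRCm38.p6); the motif searches are descriptions. Alternatives were DESeq2 1.42.0 size factors and Wald test, library totals without TMM, no low-count filter, a higher low-count limit, a fit to the compared libraries alone, the replicate block, the legacy fit, the fit without 7-day WT libraries, and leaving out each library.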

Additional observations from a re-analysis of the deposited data

Results flagged for a closer look

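The change between the times differed between the libraries labelled STING-KO and WT for 10292 genes and between STING-KO and cGAS-KO for 3830 genes, by the test of the difference itself in edgeR's quasi-likelihood fit. The values below are STING-KO change minus the other genotype's change on the log2 scale, or the adjusted p alone where a group held 3 counts or fewer. All names are the libraries' labels. Explanations were not tested.

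Against WT, the 5 largest positive differences were Nkain3 at 6.81, Fibcd1 at 6.68, Nr4a3 at 6.63, Epha6 at 6.40 and Slc9a2 at 6.14. Nr4a3, an orphan nuclear receptor induced by activity, stood at 2.29 and 4.03 CPM and then 129 and 45.5 CPM in libraries labelled STING-KO and at 76.2 and 89.5 CPM and then 9.70 and 35.8 CPM in libraries labelled WT. The 5 largest negative differences were Saa3 (adjusted p = 0.00055), Atp6v0d2 (adjusted p = 2.58e-06), Mmp3 (adjusted p = 3.08e-05), Spp1 at -16.27 and Cd5l (adjusted p = 4.67e-07). Cd5l, a secreted macrophage protein, stood at 135 and 147 CPM and then 0.120 and 0.977 CPM in libraries labelled STING-KO and at 0.0561 and 0 CPM and then 6.13 and 13.8 CPM in libraries labelled WT.

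Against cGAS-KO, the 5 largest positive differences were Sema3a at 4.58, Gpr101 at 4.27, Slc9a2 at 3.84, Crispld1 at 3.76 and Hba-a2 at 3.70. Sema3a, an axon guidance cue, stood at 4.76 and 2.22 CPM and then 56.8 and 42.7 CPM in libraries labelled STING-KO and at 25.2 and 12.2 CPM and then 8.19 and 14.2 CPM in libraries labelled cGAS-KO. The 5 largest negative ones were Shox2 (adjusted p = 0.0104), Tnf (adjusted p = 0.0362), C1ql2 at -7.04, Msc (adjusted p = 0.0225) and Mmp12 at -6.11. C1ql2, a gene of dentate granule cells, stood at 9.92 and 68.8 CPM and then 0.420 and 1.11 CPM in libraries labelled STING-KO and at 3.98 and 0.978 CPM and then 1.33 and 11.0 CPM in libraries labelled cGAS-KO. Of the 20 differences, 6 were not called under some alternative (Slc9a2 against cGAS-KO, Hba-a2, Shox2, Tnf, C1ql2 and Msc), with adjusted p of up to 0.218.

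With 1 library left out, several of these log2 differences moved by more than the log2 of 1.5, which is a 1.5-fold shift on the unlogged scale. Against WT, Nkain3 was at 6.14 without 14-day STING-KO replicate 2, 6.15 without 14-day WT replicate 1 and 8.26 without 14-day WT replicate 2. Nr4a3 was at 5.72 without 14-day STING-KO replicate 1, 5.98 without 14-day WT replicate 1 and 7.90 without 14-day WT replicate 2. Epha6 was at 7.23 without 14-day WT replicate 2, and Spp1 at -17.55 and -15.59 without 7-day WT replicates 1 and 2.

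Against cGAS-KO, Sema3a was at 3.95 without 7-day cGAS-KO replicate 1 and 5.20 without 7-day STING-KO replicate 1. Gpr101 was at 2.92 and 4.93 without 7-day cGAS-KO replicates 1 and 2, 5.22 without 14-day cGAS-KO replicate 2 and 5.004 without 7-day STING-KO replicate 1. Slc9a2 was at 1.77 and 4.62 without 7-day cGAS-KO replicates 1 and 2. Crispld1 was at 4.60 without 14-day cGAS-KO replicate 2 and 4.47 without 7-day STING-KO replicate 1. Hba-a2 was at 2.47 and 4.36 without 14-day STING-KO replicates 1 and 2, and Mmp12 at -6.96 without replicate 1 of that group. C1ql2 moved past that size without any of 7 of the 8 libraries, from -8.36 without 7-day cGAS-KO replicate 1 to -4.84 without 14-day cGAS-KO replicate 2.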

How the results depend on the processing

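The count of 11274 genes changed between the times ran from 9576 to 11294 over the alternatives that kept all libraries, with the highest under the replicate block, and from 9194 to 10850 with 1 library left out; 45.9% to 48.9% of the calls were higher. The count that differed from WT was 9652 to 10478, or 8464 to 10308 with 1 library left out. The count that differed from cGAS-KO was 2696 to 4622, or 1889 to 5007 with 1 library left out. Same-numbered STING-KO libraries did not deviate together (correlation 0.02), so the numbers were not taken as pairs. Of 153 genes named and called, 10 (Nefh, Isg15, Adar, Ttr, Fibcd1, Anln, Il18, Il34, Lamp5 and Rorb) lost their call under some alternative and 0 reversed; of the uncalled, Ifit3, Irf7, Postn and mt-Co1 passed under some alternative. List medians changed sign for T, NK and B cell genes (-0.87 to 0.31 with the compared libraries alone and 0.10 without 7-day replicate 2), ependymal, erythrocyte, mitochondrially encoded and respiratory chain genes. Precision is limited by 2 libraries per group and, below about 0.2 CPM, by depth.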
